A study of Mus musculus with 6 samples.

Results

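The genes described here are 49 genes of DNA replication and mitosis, taken by name: 23 that copy the genome or supply its nucleotides, and 26 that segregate the chromosomes. A probe was found for 48 of the 49, all except Rrm2, and these 48 stood among 19855 features tested on the arrays. The 6 lines measured are primary cultures derived from tumours in the lungs of C57BL/6J mice with conditional alleles, that of Rb1 among them, which model small cell lung carcinoma. The labels name 3 pairs, each with 1 line called non-SMC and 1 called SMC, and do not spell out the abbreviation. Both lines of pair 2 are labelled male and those of pairs 1 and 3 female. No treatment is named for any line, the conditional alleles are common to both groups, and the labels do not say what deleted them or whether a line is 1 clone. Each line was hybridised to 1 array. The error given after ± is the moderated standard error of the paired difference from the limma fit (3 pairs). It draws the variance of each gene toward that of all features, so it is not the spread of the gene's 3 pairs alone.

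A level is the log2 signal of a gene's probe minus the array's 75th percentile. A difference is the SMC level minus the non-SMC level, with pair as a block (limma, 19855 features, called at a Benjamini-Hochberg adjusted p under 0.05). On each array, 26393 to 28210 of the 41174 probes exceeded background clearly (called detected here), and no spot was saturated. The groups differed in cell type markers measured on the same arrays. The summed linear signal of 12 fibroblast markers, in multiples of the 75th percentile, was 293 to 682 in the non-SMC lines and 0.599 to 2.56 in the SMC lines, and Vim was detected on 1 of the 3 SMC arrays. That of 12 neuroendocrine markers was 20.7 to 143 and 246 to 365, with 9 to 12 of them detected in non-SMC lines and 11 or 12 in SMC lines. For 13 leukocyte markers the sum was 1.86 to 17.5 in non-SMC and 1.87 to 18.8 in SMC lines, but non-SMC replicate 3 stood apart, with 12 of the 13 detected against 4 to 8 in the other lines. Its Cd52 and Tyrobp levels were 0.78 and -0.26, and neither was above -5.10 in another line. Lyz2, Csf1r and Coro1a were highest elsewhere, Lyz2 at 0.12 in SMC replicate 3 against -1.05 in non-SMC replicate 3. The highest leukocyte marker of non-SMC replicate 3 was Cd14, at 3.54. Cd14 stood at 0.66 and 1.96 in non-SMC replicates 1 and 2, and at -4.53 or less in SMC lines. The highest SMC sum came mostly from Coro1a, at 4.21 in SMC replicate 2. For 8 epithelial markers the sums were 3.19 to 630 and 9.24 to 499.8. Endothelial markers summed to 0.346 or less, and Pecam1 was detected on no array. The epithelial markers ran opposite ways in pairs 1 and 3, with median differences of 6.99 and -6.38. What part these cell type differences have in the values below was not tested.

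Cells copy their DNA once per division. The origin recognition complex, Cdc6 and Cdt1 load the Mcm2 to Mcm7 helicase in G1, geminin blocks reloading, and Cdc45 and the GINS complex start the helicase in S phase. Many of these genes are transcribed by E2F factors, which the retinoblastoma protein restrains. Genes of mitosis peak later, under B-Myb, FoxM1 and the MuvB complex, which binds a promoter element called the cell cycle genes homology region, or CHR. Small cell lung carcinoma is known for rapid division and for loss of RB1.

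Letters known from cell cycle promoters were counted in both classes, as a description with no test. Windows of 250 bases before and 50 after the start of transcription were taken from RefSeq (GRCm38.p6) for 18 replication and 21 mitosis genes (19 and 21 windows). The searches, on both strands, were for an E2F motif (TTTCCCGC, TTTCGCGC, TTTGCCGC or TTTGGCGC), a CHR motif (TTTGAA or TTTAAA) and a CCAAT box (CCAAT). An E2F motif stood in 9 of the 19 replication windows (47.4%) and in 1 of the 21 mitosis windows (4.76%), against 2.27% of 32851 RefSeq windows. For the CHR letters the order was the other way, with 17 of 21 mitosis windows (81.0%) and 5 of 19 replication windows (26.3%), against 27.6% of all. CCAAT boxes were common to both, in 73.7% and 81.0% against 37.4%. CHR letters and a CCAAT box stood together in 16 of the 21 mitosis windows (76.2%) and 4 of the 19 replication windows (21.1%), against 10.73% of all. The longer lists of other genes, described further on, were less far apart in E2F motifs, at 24.1% of 54 replication windows and 12.0% of 75 mitosis windows. In those lists CHR letters stood in 25.9% and 64.0%, and CCAAT boxes in 42.6% and 68.0%.

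The stretches below are the 150 bases before the start in 6 genes, shown because they carry the letters that divide the classes: Mcm6, Orc1 and Pola1 hold E2F motifs, Mki67 and Cdc20 CHR letters, and Cdk1, the mitotic kinase, both. Capitals mark E2F motifs (8 bases), CHR letters (6 bases) and CCAAT boxes (5 bases, CCAAT or its reverse ATTGG), and in Mcm6 the first E2F pair overlaps. A match of letters is not evidence of binding.
Mcm6 (chr1:128359706-128359855, minus strand): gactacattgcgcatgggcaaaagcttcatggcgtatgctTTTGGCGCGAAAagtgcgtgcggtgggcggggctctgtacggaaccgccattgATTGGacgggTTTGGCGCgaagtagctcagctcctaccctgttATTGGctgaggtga
Orc1 (chr4:108579304-108579453, plus strand): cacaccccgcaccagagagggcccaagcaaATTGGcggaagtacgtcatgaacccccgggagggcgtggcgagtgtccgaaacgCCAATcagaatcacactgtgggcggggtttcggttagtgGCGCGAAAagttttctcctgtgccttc
Pola1 (chrX:93632156-93632305, minus strand): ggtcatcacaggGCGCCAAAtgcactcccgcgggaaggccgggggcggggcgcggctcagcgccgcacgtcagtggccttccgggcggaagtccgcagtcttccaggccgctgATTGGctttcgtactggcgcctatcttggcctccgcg
Cdk1 (chr10:69352913-69353062, minus strand): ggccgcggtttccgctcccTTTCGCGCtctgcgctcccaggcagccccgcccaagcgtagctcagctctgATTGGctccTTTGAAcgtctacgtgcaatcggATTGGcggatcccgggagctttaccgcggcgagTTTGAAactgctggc
Mki67 (chr7:135716380-135716529, minus strand): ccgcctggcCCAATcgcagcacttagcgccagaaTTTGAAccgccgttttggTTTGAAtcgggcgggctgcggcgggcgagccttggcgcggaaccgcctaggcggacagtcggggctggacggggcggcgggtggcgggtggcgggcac
Cdc20 (chr4:118437344-118437493, minus strand): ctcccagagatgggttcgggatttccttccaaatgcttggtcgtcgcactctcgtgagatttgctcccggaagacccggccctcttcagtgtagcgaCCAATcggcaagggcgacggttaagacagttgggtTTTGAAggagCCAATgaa

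None of the 48 genes passed the test between SMC and non-SMC lines. All 48 were well above background on all 6 arrays, so none depended on the filter. At an adjusted p under 0.05, 0 of 22 replication genes and 0 of 26 mitosis genes were called in either direction by limma, where 0.156% of all features were called higher in SMC and 3.03% lower. At an unadjusted p under 0.05, 2 of the 48 were higher, Mki67 and Nusap1, and none was lower, against 14.9% and 11.8% of all features. The 48 differences ran from -0.41 for Mybl2 to 1.03 for Mki67, that is, from 0.754-fold to 2.05-fold, and 47 of them (97.9%) were under 1 in size. Among all features 64.7% were under 1, and among those detected on all 6 arrays 74.3%.

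**Figure D1:**
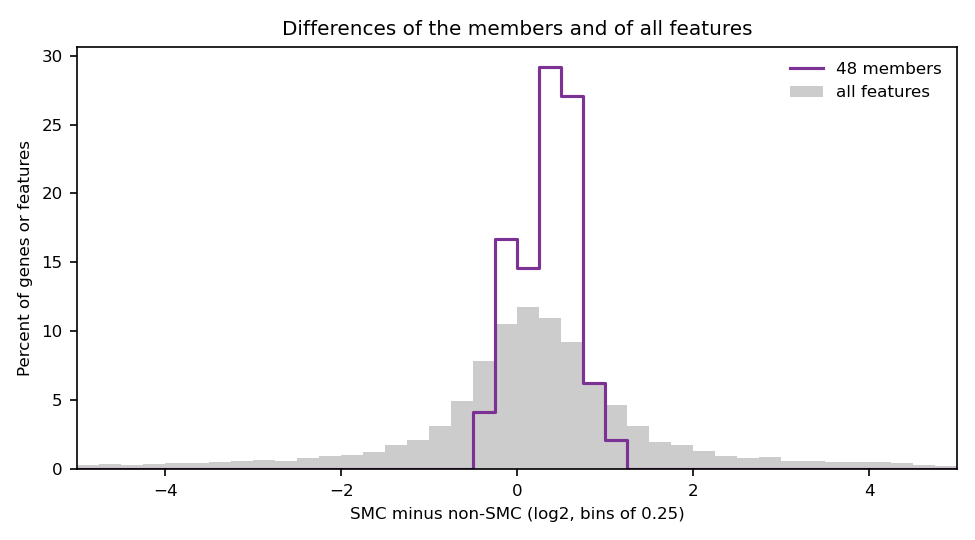
Distribution of the SMC minus non-SMC difference (log2, x axis, bins of 0.25, shown from -5 to 5) for the 48 members (purple outline) and all 19855 features (grey bars), each as a percent of its own total (y axis). The members lie between -0.41 and 1.03, while the features extend beyond both ends of the axis.

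The precision of 3 pairs did not exclude moderate differences for most genes. The standard errors were 0.28 to 0.53, and the median half-width of the 95% interval was 0.87 for replication genes and 1.07 for mitosis genes. The interval stayed under 1, a 2-fold increase, in 8 of the 48 genes and above -1 in 37 of them. Both bounds lay within 1 of zero for 4 genes, 3 of replication and 1 of mitosis. The absence of a call therefore does not show equal levels.

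**Figure D2:**
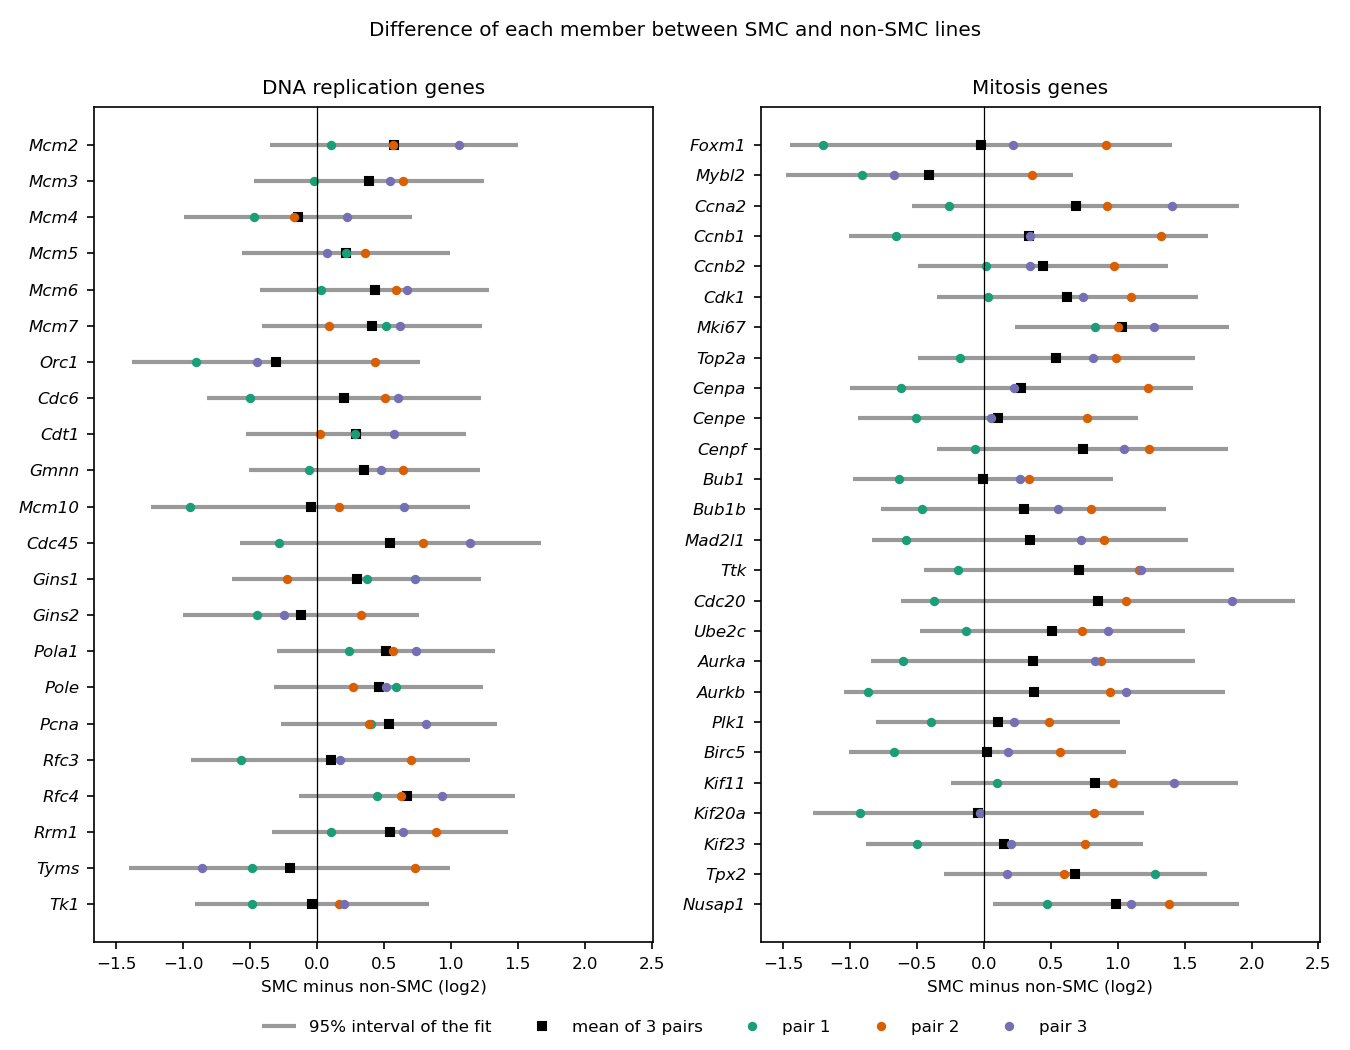
SMC minus non-SMC difference (log2, x axis) of each replication gene (left) and mitosis gene (right). Squares are means of 3 pairs, grey bars the 95% interval of the paired limma fit, and coloured points the 3 pairs. Intervals of Mki67 and Nusap1 alone lie above zero, and pair 1 lies below zero for 20 of the 26 mitosis genes.

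The subunits of the MCM helicase, the ring that unwinds DNA ahead of the fork, showed 5 positive differences of 6. Mcm2 was 3.47, 2.36 and 2.36 in the non-SMC lines (replicates 1 to 3, in this order throughout) and 3.58, 2.92 and 3.42 in SMC lines. Non-SMC replicate 1 lay within the SMC range and the other non-SMC lines below it, and the difference was 0.58 ± 0.34 (SE, 3 pairs, limma adjusted p = 0.338). Mcm4, which had the lowest difference of the ring, was 5.33, 4.54 and 4.83 against 4.85, 4.37 and 5.05. Its groups overlapped, with the highest and the lowest value in non-SMC replicate 1 and SMC replicate 2, and its difference was -0.14 ± 0.31. Mcm3, Mcm5, Mcm6 and Mcm7 differed by 0.39, 0.22, 0.43 and 0.41. Of these, Mcm7 was the only one without overlap, at 4.86 to 5.22 in non-SMC and 5.31 to 5.53 in SMC lines.

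Genes that license origins and activate the helicase spread around zero. Orc1, the subunit of the origin recognition complex with cell cycle control, was -1.53, -2.93 and -1.78 in non-SMC lines and -2.43, -2.498 and -2.23 in SMC lines. The SMC lines lay inside the wider non-SMC range, and the difference of -0.31 ± 0.39 was the lowest among the replication genes. Cdt1, the loading factor, was 4.65, 4.21 and 4.63 against 4.93, 4.23 and 5.20, a difference of 0.29 ± 0.30. Its inhibitor geminin (Gmnn) was 4.79, 4.60 and 4.41 against 4.73, 5.25 and 4.89, a difference of 0.35 ± 0.31. Both genes overlapped between groups, and Cdt1 was lowest in pair 2, where Gmnn was highest in the SMC line. Cdc6, which acts with Cdt1, differed by 0.20.

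Cdc45, a partner of the active helicase, was 0.67, -0.32 and -0.62 in non-SMC lines and 0.38, 0.46 and 0.52 in SMC lines. Non-SMC replicate 1 was its highest line and the other non-SMC lines its lowest, so the difference of 0.55 ± 0.41 came with an adjusted p of 0.434 (limma). Gins2, a GINS subunit, was 2.18, 0.24 and 1.79 against 1.74, 0.57 and 1.55. Both lines of pair 2 were low for it, which gave the widest range over lines among the replication genes (1.94), while the groups differed by only -0.12 ± 0.32. Gins1 and Mcm10, which also act in helicase activation, differed by 0.30 and -0.05.

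Polymerase and clamp genes were the class with the highest median among replication genes, 0.52 over 5 genes, all of them positive. Rfc4, a subunit of the clamp loader, was 3.12, 2.85 and 2.60 in non-SMC lines and 3.57, 3.48 and 3.53 in SMC lines. The groups did not overlap, and the difference of 0.67 ± 0.29 (1.59-fold, limma adjusted p = 0.236) was the largest of the replication genes. Pcna, the sliding clamp, was 5.71, 5.55 and 5.21 against 6.11, 5.95 and 6.03, again without overlap, with a difference of 0.54 ± 0.29 (limma adjusted p = 0.312). Pole, the catalytic subunit of the leading strand polymerase, was 2.64 to 2.74 in non-SMC and 2.99 to 3.34 in SMC lines. Pola1, of the polymerase that lays down primers, and Rfc3 overlapped between groups and differed by 0.52 and 0.10.

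Enzymes of nucleotide supply had no common direction. Rrm1, the large subunit of ribonucleotide reductase, was 4.61, 3.87 and 3.66 in non-SMC lines and 4.72, 4.77 and 4.30 in SMC lines, a difference of 0.55 ± 0.32. Tyms, thymidylate synthase, was 4.76, 3.96 and 4.40 against 4.27, 4.69 and 3.54. It was lower in the SMC line of pairs 1 and 3 and higher in that of pair 2, with a difference of -0.20 ± 0.43. Tk1, the thymidine kinase of dividing cells, was 4.51, 3.45 and 3.93 against 4.03, 3.62 and 4.13, a difference of -0.04 ± 0.32. All 3 SMC lines lay inside the non-SMC range of Tk1.

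Mki67, the gene of the proliferation antigen Ki-67, had the largest difference of all 48 genes. It was 4.80, 5.37 and 4.89 in non-SMC lines and 5.63, 6.37 and 6.15 in SMC lines. Every SMC line lay above every non-SMC line, by 0.83, 1.00 and 1.27 within pairs 1 to 3, and the difference was 1.03 ± 0.29 (95% interval 0.23 to 1.83). It did not pass the test across all features (limma adjusted p = 0.140, and 0.0824 to 0.453 in 19 other settings). A dimmer probe of the same gene gave 2.61, 3.36 and 2.85 against 3.63, 4.42 and 4.12, a difference of 1.12 (limma adjusted p = 0.118 among single probes). Top2a, the topoisomerase that untangles chromosomes, was 2.54, 2.37 and 2.24 against 2.36, 3.36 and 3.06. Its SMC replicate 1 fell among the non-SMC lines, unlike for Mki67, and the difference was 0.54 ± 0.38.

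The cyclins and the kinase that drive entry into mitosis were all positive and all uncalled. Cdk1 was 2.39, 1.92 and 1.75 in non-SMC lines and 2.41, 3.02 and 2.50 in SMC lines. The groups did not overlap, although SMC replicate 1 exceeded its partner by only 0.03, and the difference was 0.62 ± 0.35 (limma adjusted p = 0.325). Ccnb1, its B-type cyclin, was 2.54, 1.85 and 1.49 against 1.88, 3.17 and 1.83. SMC replicate 2 stood out as the highest line and the other SMC lines lay within the non-SMC range, with a difference of 0.34 ± 0.49. Ccnb2 and Ccna2, the other mitotic cyclins measured, differed by 0.44 and 0.69. Foxm1 and Mybl2, the transcription factors of this phase, did not share the positive sign of the cyclins and Cdk1, though Foxm1 lay near zero. Foxm1 was 2.99, 1.60 and 1.49 against 1.78, 2.52 and 1.71 (-0.02 ± 0.52), and Mybl2 was 1.996, 1.46 and 1.46 against 1.09, 1.82 and 0.79 (-0.41 ± 0.39). For both, non-SMC replicate 1 was the highest line.

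Spindle motors and spindle assembly factors included 2 of the 4 largest increases among mitosis genes. Nusap1, a microtubule-binding protein of the spindle, was 2.84, 2.81 and 2.31 in non-SMC lines and 3.31, 4.20 and 3.42 in SMC lines, without overlap. Its difference of 0.99 ± 0.33 (95% interval 0.07 to 1.91) was not called (limma adjusted p = 0.172). Kif11, the motor that separates spindle poles, was 0.78, 0.49 and -0.09 against 0.88, 1.45 and 1.33, a difference of 0.83 ± 0.39, and its groups also did not overlap. Kif20a, a motor of cytokinesis, was 4.45, 3.31 and 3.34 against 3.53, 4.14 and 3.32, with a difference of -0.04 ± 0.45 and full overlap. Kif23, of the same stage, differed by 0.15. Tpx2, which activates Aurora A on the spindle, behaved unlike the rest: SMC replicate 1 was its highest line, at 4.81, and exceeded its partner by 1.28, the only mitosis gene highest in that line.

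Spindle checkpoint genes were taken with 2 genes that work with the anaphase-promoting complex, Cdc20 and Ube2c. By the brightest probe, each of the 6 genes was lower in the SMC line of pair 1 and higher in those of pairs 2 and 3. The dimmer probe of Bub1 was higher in all 3 pairs, by 0.08, 0.78 and 1.04. Cdc20, which activates that complex, was 5.19, 4.80 and 4.13 in non-SMC lines and 4.82, 5.86 and 5.99 in SMC lines. The within-pair values were -0.37, 1.06 and 1.86, and the difference of 0.85 ± 0.53 had the largest standard error of the 48 (limma adjusted p = 0.367). Bub1, a checkpoint kinase, was 2.05, 1.65 and 1.92 against 1.41, 1.98 and 2.19, which left a difference of -0.0083 ± 0.35. The checkpoint kinase Ttk, the checkpoint proteins Bub1b and Mad2l1 and the ubiquitin carrier Ube2c differed by 0.71, 0.30, 0.35 and 0.51.

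The kinases of mitosis and the centromere proteins repeated this order of pairs by their brightest probes. Plk1, a kinase of mitotic entry and exit, was 4.29, 4.08 and 3.41 against 3.89, 4.57 and 3.64, and Aurkb, the kinase of the chromosomal passenger complex, was 1.51, 0.64 and 0.52 against 0.65, 1.59 and 1.58. Their differences were 0.11 ± 0.33 and 0.38 ± 0.52. In pair 1 the SMC minus non-SMC values were -0.39 and -0.87, and in pairs 2 and 3 both were higher. Aurka and Birc5, which encodes the passenger subunit survivin, differed by 0.37 and 0.03. The centromeric histone Cenpa, the kinetochore motor Cenpe and Cenpf, which binds kinetochores, differed by 0.28, 0.11 and 0.74. In pair 1 Cenpf was -0.06 by its brightest probe and 0.36 by its dimmer probe. A dimmer probe of Cenpe was -0.14 in pair 3.

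Set side by side, replication and mitosis genes had medians close to each other over all pairs and farther apart in pairs 1 and 2. The median difference was 0.32 for the 22 replication genes and 0.37 for the 26 mitosis genes, against 0.18 for all features, and 16 and 22 genes were positive, against 11582 of the 19855 features. In pair 1 the replication median was 0.01 and the mitosis median -0.43, against 0.06 for all features. In pair 2 they were 0.47 and 0.92, against 0.18, and in pair 3 they were 0.59 and 0.64, against 0.25. Higher values in the SMC line were found for 11 of 22 replication genes and 6 of 26 mitosis genes in pair 1, for 20 and 26 in pair 2, and for 19 and 24 in pair 3. The counts for all 19855 features were 10291, 11909 and 11722. Without pair 1 the mitosis median was 0.82 and without pair 2 it was 0.10, while the replication median was 0.42 and 0.31. That of all features was 0.23 and 0.16. A sign common to all 3 pairs, always positive, was found for 10 of 22 replication and 6 of 26 mitosis genes, 16 of the 48. Of the 19855 features, 6677 were positive and 4343 negative in all 3 pairs. The positive share was thus larger in replication genes and smaller in mitosis genes than in all features. Groups without overlap were found for 4 replication genes (18.2%) and 5 mitosis genes (19.2%), all with SMC above. Among all features, 22.8% had all SMC lines above all non-SMC lines and 15.4% below, so the members' share was near or under the background.

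**Figure D3:**
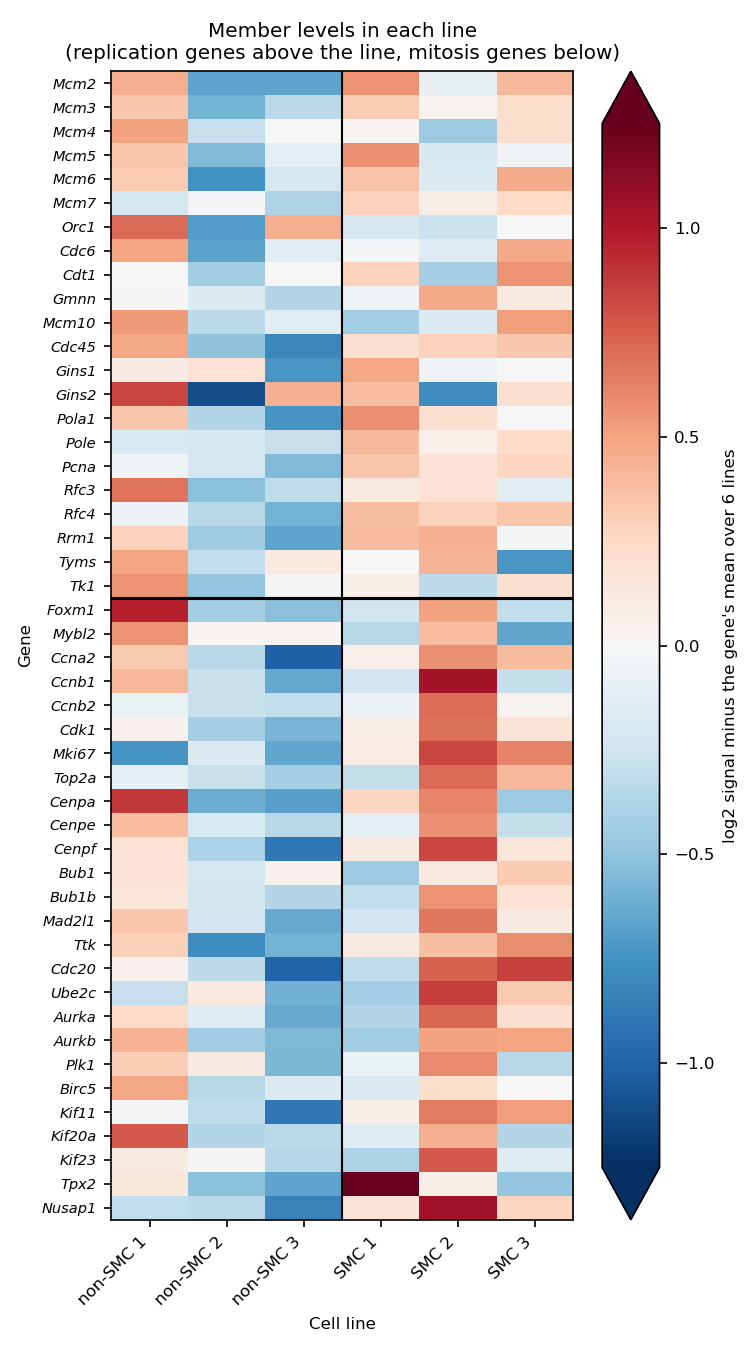
Level of each member in each line, as the log2 signal minus the gene's mean over the 6 lines (colour). Rows are replication genes above the black line and mitosis genes below it, columns are the 3 non-SMC and 3 SMC lines. Non-SMC replicates 2 and 3 are mostly blue, and the mitosis rows are darkest red in SMC replicate 2.

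Both classes also varied between the lines of 1 group. Centred on each gene's mean over the 6 lines, the median replication level was 0.34, -0.44 and -0.30 in non-SMC lines and 0.31, 0.00018 and 0.22 in SMC lines. Mitosis genes had medians of 0.21, -0.30 and -0.58 in the non-SMC lines and -0.17, 0.63 and 0.16 in the SMC lines. Non-SMC replicate 1 was above both other non-SMC lines for 20 of 22 replication and 24 of 26 mitosis genes. SMC replicate 2 was the highest of all 6 lines for 17 of 26 mitosis genes but for 2 of 22 replication genes, and non-SMC replicate 3 was the lowest for 19 and 9. The replication median minus the mitosis median was accordingly 0.47 in SMC replicate 1, -0.63 in SMC replicate 2 and 0.06 in SMC replicate 3, and 0.13, -0.14 and 0.28 in the non-SMC lines. These values are descriptions of single lines and were not tested. Non-SMC replicate 3, often the lowest line, is also the one with 12 of 13 leukocyte markers detected, and the part of this in its levels was not tested. Without that line, and without the pair block, the median differences were 0.27 and 0.19, against 0.15 for all features. In that fit limma called 0 of the 48 genes, where 0.0806% of all features were called higher and 2.18% lower. The other 4 arrays shared 1 slide, apart from those of non-SMC replicate 1 and SMC replicate 3, so pair 2 is the only pair within a slide. On the shared slide alone the medians were 0.49 and 0.60, against 0.19 for all features.

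**Figure D4:**
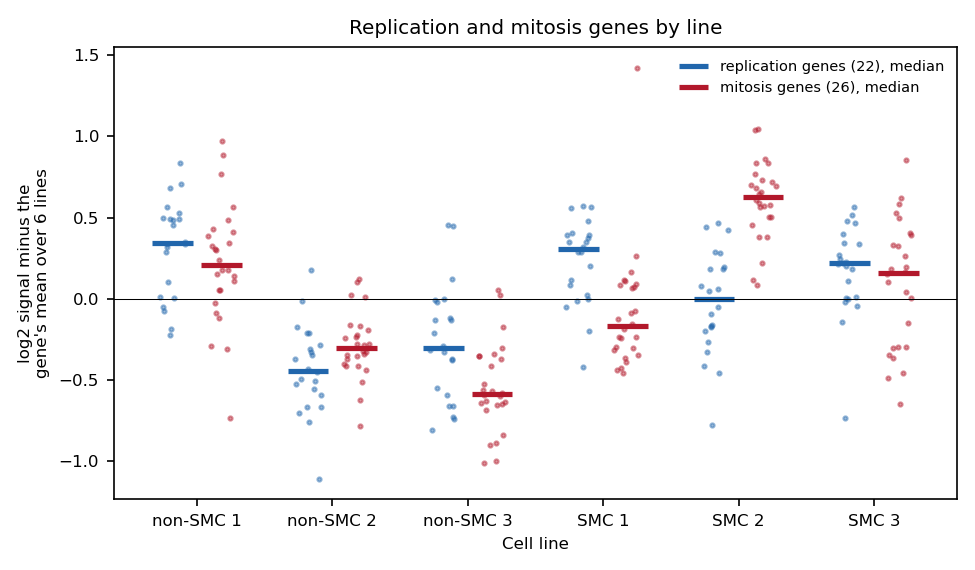
Log2 signal minus the gene's mean over 6 lines (y axis) for 22 replication genes (blue) and 26 mitosis genes (red) in each line (x axis). Points are genes and bars are medians. The classes part most in SMC replicate 1 (0.31 and -0.17) and SMC replicate 2 (0.00018 and 0.63).

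Over the 6 lines, the range of a gene had a median of 1.11 in the replication class and 1.32 in the mitosis class, against 1.40 for the 16330 features detected on all 6 arrays. The smallest range was 0.67, for Mcm7, and the largest 2.08, for Tpx2. In the same lines the fibroblast markers had a median difference of -9.81, with 6 of 11 tested genes called lower, and the neuroendocrine markers one of 4.45, with 0 of 11 called.

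More than 1 probe was found for 12 of the 48 genes, and the 62 member probes taken singly gave 0 calls. Among all 26691 probes of that fit, 54 were called higher in SMC and 857 lower. Probes of a gene agreed in sign except for Bub1, whose dimmer probe differed by 0.63. They lay more than 1 apart for Cdc6, where the dimmer probe was -1.22, -1.46 and -1.44 against -0.26, -0.82 and 0.70 (1.25 ± 0.42), and for Cdk1, where the dimmer probe was -5.25, -5.57 and -6.24 against -4.28, -3.91 and -3.39 (1.83 ± 0.47, limma adjusted p = 0.12 among single probes). That Cdk1 probe was detected on 5 of 6 arrays. For the other genes the spread between probes was 0.05 to 0.64.

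**Figure D5:**
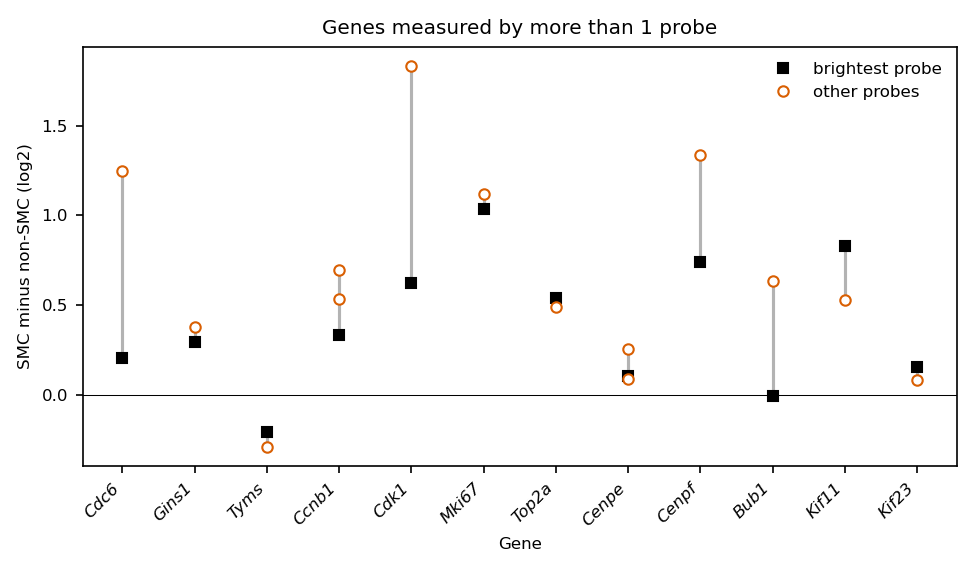
SMC minus non-SMC difference (log2, y axis) of every probe of the 12 genes with more than 1 probe (x axis). Squares are the brightest probe, which stands for the gene, and circles the others. Cdk1 and Cdc6 have the widest spread, and Bub1 is the only gene with probes on both sides of zero.

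Further genes of the same processes, from longer lists, were likewise uncalled. Of 49 other replication genes and 71 other mitosis genes tested, limma called 0 and 0. At an unadjusted p under 0.05 (limma), 13 and 8 were higher and none lower, where 14.9% of all features were higher and 11.8% lower. All SMC lines lay above all non-SMC lines in 26 and 21 genes, in both lists a larger share than the 22.8% of all features. They lay below in 2 and 0 genes, against 15.4% of all features. The median differences of the 2 lists were 0.55 and 0.51, against 0.18 for all features. Positive differences were found for 41 and 59 genes, and for 11582 of the 19855 features. The replication gene farthest from zero was Dna2, a nuclease and helicase of Okazaki fragment processing, at -0.82, 0.60 and -0.74 in non-SMC lines and 2.28, 1.93 and 1.61 in SMC lines. The groups did not overlap, and the difference was 2.26 ± 0.45 (limma adjusted p = 0.101). Wdhd1, which ties the helicase to polymerase alpha, was 0.90, 0.45 and -0.34 against 2.06, 1.59 and 1.95, a difference of 1.53 ± 0.38. Among mitosis genes, Psrc1, a spindle protein, was 1.02, 1.90 and 1.02 against 2.75, 2.12 and 3.08, a difference of 1.33 ± 0.48. Fbxo5, an inhibitor of the anaphase-promoting complex, was 2.66, 3.12 and 2.20 against 3.21, 4.29 and 3.94, a difference of 1.16 ± 0.37. In all 3 of these genes every SMC line lay above every non-SMC line. In pair 1 the other mitosis genes had a median of -0.17 with 27 of 71 positive, in pair 2 one of 0.77 with 71 of 71, and in pair 3 one of 0.81 with 64 of 71. SMC replicate 2 was the highest line for 40 of these 71 and non-SMC replicate 3 the lowest for 45.

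Of 18 genes of the E2F, retinoblastoma and MuvB families, which regulate both classes, 0 were called and 15 were positive, with a median of 0.66. Among all features, 11582 of 19855 were positive, with a median of 0.18. At an unadjusted p under 0.05 (limma), 6 of the 18 were higher and 0 lower, against 14.9% and 11.8% of all features. All SMC lines lay above all non-SMC lines in 9 of the 18 and below in 1, against 22.8% and 15.4%. E2f2 had the largest difference and was chosen after its values were seen. It was 0.94, 7.32 and 1.27 in non-SMC lines and 4.28, 8.46 and 5.75 in SMC lines, so that both lines of pair 2 were the highest. Its difference of 2.99 ± 0.74 was not called (limma adjusted p = 0.124). Rb1, the conditional gene itself, was -2.07, -0.38 and -2.09 against 0.63, 0.63 and 0.27, a difference of 2.02 ± 0.45 (limma adjusted p = 0.113). The position of its probe relative to the deleted part is not known here, so these values are no check of the deletion.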

How the data were processed

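Total RNA of the 6 lines was labelled with Cy3 and hybridised to Agilent arrays, per the labels' protocols. The deposited intensity per spot is the processed signal, background-subtracted by Feature Extraction 10.7.3.1, per the file headers. The spot and background medians used for the normexp alternative are deposited intensities too. The authors' series table holds deposited log2 values with equal quantiles in all columns (median 5.07). Against log2 of the matching array, a column's correlation was at least 0.996, which gave scale and direction. The sources used here give no other step.

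Control spots (1639) and outlier spots were left out, spots of a probe were averaged, and the array's 75th percentile (485 to 696 intensity units) was subtracted on the log2 scale. A probe was kept where all 3 arrays of a group detected it. The files carry no gene names, so transcript accessions were matched to RefSeq (27479 of 41174 probes), and no probe matched Rrm2. The brightest kept probe stood for a gene. The main fit was limma 3.58.1 (R 4.3.3) with pair and group, two-sided, with 2 residual and 2.07 prior degrees of freedom, also tested on simulated data. Pairs come from the labels. Within pairs 1 to 3, the lines' deviations from their group means had correlations of -0.0106, 0.138 and -0.0029. Between lines of different pairs they were -0.149 to 0.135. Pair 2 had the highest correlation, by little, so these correlations do not clearly show the pairing. With 1 array per line, p-values of the main fit rest on the spread of the 3 within-pair differences, drawn toward that of all features. The 3 pairs limit the precision. The normexp alternative used the spot median, since the files hold no spot mean.

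Genes, lists and tests were chosen with earlier results of these data known. Every gene of both classes was named. Values per line were given for the 4 largest increases and decreases of each class, for 12 standing genes, and for the 2 largest differences of each longer list. Alternatives were 3 normalizations or background corrections, the deposited values, 2 filters, the mean of a gene's probes, no block, the slide as a block or alone, and leaving out pairs or lines. Part of the mice's genotype is not reported here.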

Additional observations from a re-analysis of the deposited data

How the results depend on the processing

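No gene of replication or mitosis was called in any of 19 other settings, and the lowest limma adjusted p of any of them was 0.0824 (Mki67, with no replicate block and without non-SMC replicate 2). In that setting 7.83% of all features were called higher and 5.77% lower. Without pair 1 the shares were 0% and 1.04%, and without pair 3 limma called 0 of the 19855 features. The settings thus differed in how far they could call any gene. With no replicate block and all lines the counts were 0 as well, with Mki67 lowest at 0.101, so removing the pairing changed no call of these genes. Over all features it moved the calls from 31 higher and 602 lower to 273 higher and 975 lower. The median difference kept its sign in all 19 settings, at 0.175 to 0.487 for replication genes and 0.105 to 0.822 for mitosis genes, while that of replication minus mitosis genes ranged from -0.40 to 0.27. The median of all features was positive in all 19 as well, at 0.078 to 0.227. It exceeded the mitosis median without pair 2 (0.163 against 0.105). It did so too with no replicate block and without SMC replicate 2 (0.178 against 0.157). Without pair 1, the medians of replication and mitosis genes were 0.42 and 0.82, and without pair 2 they were 0.31 and 0.10. Normexp lowered the median of all features from 0.18 to 0.08 and left the classes at 0.32 and 0.37. Signs were kept in all settings by 31 genes, and the 17 that turned had differences of 0.34 or less in size.

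With quantile normalization the difference became 0.0051 for Mcm10, 0.022 for Tk1, 0.029 for Bub1, 0.024 for Kif20a and 0.029 for Foxm1, and with the deposited values 0.0032, 0.024, 0.030, 0.024 and 0.035. It became -0.054 for Birc5 with median scaling and 0.313 for Bub1 with the mean of probes. On the shared slide alone it was 0.304 for Tyms, 0.134 for Tk1, 0.137 for Gins2, 0.505 for Kif20a and 0.602 for Foxm1. With lines or pairs left out, differences ranged from -0.244 to 0.375 for Birc5, -0.182 to 0.305 for Bub1, -0.157 to 0.832 for Ccnb1, -0.078 to 0.558 for Cdc6, -0.194 to 0.791 for Cenpa, -0.226 to 0.413 for Cenpe, -0.493 to 0.567 for Foxm1, -0.703 to 0.269 for Gins2, -0.475 to 0.399 for Kif20a, -0.193 to 0.480 for Kif23, -0.395 to 0.406 for Mcm10, -0.322 to 0.074 for Mcm4, -0.0136 to 0.445 for Mcm5, -0.163 to 0.356 for Plk1, -0.197 to 0.471 for Rfc3, -0.292 to 0.236 for Tk1 and -0.672 to 0.122 for Tyms. The cause of these turns was not tested.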
